A study of Mus musculus with 6 samples.

Results

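The RANKL, RANK, OPG and CSF1 axis is the set of ligands, receptors, decoy and adaptor that starts the formation of osteoclasts, the cells that resorb bone. It was read here as 7 genes chosen by name for these roles, Tnfsf11, Tnfrsf11a, Tnfrsf11b, Traf6, Csf1, Csf1r and Il34. All 7 were found among the 24346 gene names of each library, and all 7 averaged 1 FPKM or more across the 6 libraries, as did the 13180 genes that were tested. FPKM is a fragment count corrected for transcript length and for library size, so levels of different genes can be set side by side.

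The RNA came from calvaria, the roof of the skull with its sutures and adjoining cartilage, taken from newborn mice. The 3 control libraries had the genotype Pth1rfl/fl and the other 3, labelled mutant, had Prx1-Cre;Pth1rfl/fl. Floxed alleles of Pth1r, the receptor for parathyroid hormone and its related protein, were thus common to all 6 libraries, and no group had Prx1-Cre without them. The Prx1-Cre transgene is known to act in limb mesenchyme and in parts of the skull mesenchyme, not in the blood lineage from which osteoclasts come, and the libraries are not stated to be single animals. The p-values therefore measure only the spread between these libraries.

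Pth1r was not lower in the mutant-labelled libraries, with 127, 125 and 142 FPKM in them and 89.2, 93.3 and 102 FPKM in the controls. The exons that recombination removes are not given in the sources used here. Directions follow the labels throughout. Bone was present throughout, since Col1a1, the main collagen of bone, had means of 10202 and 10678 FPKM in controls and in the mutant-labelled libraries. Skeletal muscle was present too, with the 6 muscle markers summing to between 10339.6 and 16860 FPKM in controls and between 8833 and 14883 FPKM in the mutant-labelled libraries. Absolute depth is unknown. Depth relative to control 1, read from the smallest values, was 0.845 and 0.914 in controls 2 and 3. It was 0.972, 0.778 and 0.703 in libraries 1 to 3 labelled mutant, so depth was not balanced over the groups. These estimates are rough, since between 43.7% and 47.8% of the values used lay within 2% of them.

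RANKL, encoded by Tnfsf11, is a membrane-bound ligand made by osteoblasts, osteocytes and hypertrophic chondrocytes. It binds RANK, the receptor encoded by Tnfrsf11a on osteoclast precursors, which signals through the adaptor TRAF6 to turn on the osteoclast genes. OPG, the product of Tnfrsf11b, is a soluble decoy that captures RANKL, and the precursors themselves live on CSF1 or IL34, which share the receptor encoded by Csf1r.

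Of the 7 genes, 4 had higher values in every library labelled mutant than in any control and 0 had lower ones, while of all tested genes 9.34% lay apart upward, 6.79% downward and 16.1% in either direction. These were the ligand genes Tnfsf11 and Csf1 and the receptor genes Tnfrsf11a and Csf1r, while Tnfrsf11b, Traf6 and Il34 overlapped between groups. The gene starts of 3 of the 4 are shown, as the genes whose groups lay apart in the same direction. Each window runs from 250 bases before the gene's start to 50 bases after it, written 5′ to 3′ on the gene's strand from RefSeq on GRCm38.p6, and capitals mark matches to the motifs described after them.
Tnfsf11 promoter, chr14:78307994-78308293 (- strand): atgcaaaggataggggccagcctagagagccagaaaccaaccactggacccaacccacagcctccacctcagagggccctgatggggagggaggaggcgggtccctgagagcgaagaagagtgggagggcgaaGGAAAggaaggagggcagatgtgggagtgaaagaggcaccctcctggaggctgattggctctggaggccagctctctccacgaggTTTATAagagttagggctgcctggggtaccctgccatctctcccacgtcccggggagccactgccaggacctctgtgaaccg
Tnfrsf11a promoter, chr1:105780473-105780772 (+ strand): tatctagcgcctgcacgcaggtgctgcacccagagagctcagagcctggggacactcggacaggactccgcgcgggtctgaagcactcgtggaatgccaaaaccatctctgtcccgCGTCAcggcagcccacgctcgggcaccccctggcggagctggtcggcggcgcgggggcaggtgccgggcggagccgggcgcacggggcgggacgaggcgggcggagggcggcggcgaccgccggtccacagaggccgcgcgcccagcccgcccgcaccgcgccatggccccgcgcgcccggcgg
Csf1 promoter, chr3:107760420-107760719 (- strand): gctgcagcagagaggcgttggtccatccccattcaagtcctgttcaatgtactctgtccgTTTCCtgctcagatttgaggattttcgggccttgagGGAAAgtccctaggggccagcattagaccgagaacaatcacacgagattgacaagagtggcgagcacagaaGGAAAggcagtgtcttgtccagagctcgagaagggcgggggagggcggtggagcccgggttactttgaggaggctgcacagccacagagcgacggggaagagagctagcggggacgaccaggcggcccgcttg

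The motifs searched on both strands were TGACG, the core of the cAMP response element, TGANTCA of AP-1, TGTGGT of RUNX factors, GAGGAA of PU.1, GGAAA of NFAT and TATAAA of the TATA box. Those of PU.1 and NFAT can overlap each other, and such short letter runs occur often. Among 32851 promoter windows of the same length, they were held by 20.8%, 7.81%, 16.8%, 28.3%, 61.3% and 13.6% respectively. The Tnfsf11 window held 2 matches, TATAAA on the opposite strand beginning at position -32 from the gene's start and GGAAA at -117. The Tnfrsf11a window held 1, TGACG on the opposite strand at -134, and was 76.7% G and C against 61.7% for Tnfsf11 and 58.7% for Csf1. The Csf1 window held GGAAA at -154 and -83 and, on the opposite strand, at -190. The AP-1, RUNX and PU.1 motifs had no match in these 3 windows, and no motif was found in all 3. These are matches of letters alone, and nothing was measured at these starts. The Traf6 window held GAGGAA at -161 and -106 and TGTGGT on the opposite strand at -73. No sequence is shown for Tnfrsf11b, Csf1r and Il34.

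Tnfsf11 occupies 30599 bases of chromosome 14 on GRCm38, from 78277445 to 78308043 on the minus strand, with 5 exons after merging its transcripts, and overlaps no other annotated gene. Its level was 2.18, 2.83 and 2.55 FPKM in controls 1 to 3 and 6.42, 4.78 and 6.17 FPKM in libraries 1 to 3 labelled mutant. The lowest of the latter, library 2, still lay above every control. The group means were 2.52 ± 0.32 and 5.79 ± 0.88 FPKM (± SD, n = 3 per group), a ratio of 2.30. In log2(FPKM + 1), a scale that shrinks the differences of low genes, Tnfsf11 rose by 0.94 ± 0.12 (SE; limma, Benjamini-Hochberg adjusted p = 0.031). It stood at rank 51 by p among the 13180 genes, of which 69, or 0.524%, were higher at an adjusted p under 0.05 and 11, or 0.0835%, were lower. Leaving out 1 library ended the call except without library 2 labelled mutant (limma, adjusted p from 0.0306 to 0.125 over the 6 fits). The log2 difference stayed between 0.87 and 1.16 over all settings that tested Tnfsf11. The group means gave a two-sided exact permutation p = 0.1, which is as small as 3 values against 3 can give.

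**Figure D1:**
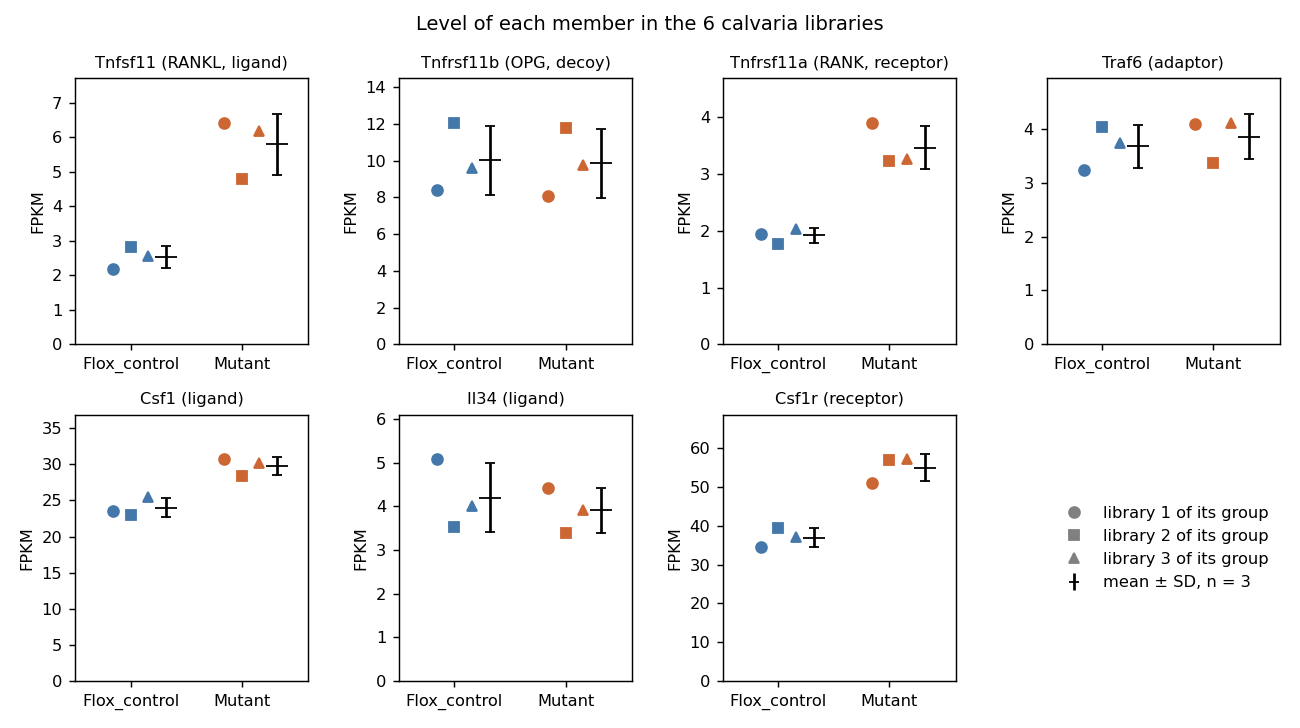
FPKM (vertical axes, each starting at 0) of the 7 genes in the 3 control libraries (blue) and the 3 labelled mutant (orange), with marker shapes for the library number within a group and black bars for the mean ± SD. Tnfsf11, Tnfrsf11a, Csf1 and Csf1r are higher in all 3 libraries labelled mutant than in any control, and the other genes overlap.

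Tnfrsf11b, the decoy gene, lies on chromosome 15 from 54250619 to 54278484 on the minus strand and overlaps no other annotated gene. It had 8.38, 12.1 and 9.59 FPKM in the controls and 8.06, 11.8 and 9.74 FPKM in the mutant-labelled libraries. The values of both groups spanned the same range, with the lowest in library 1 and the highest in library 2 of each. The means were 10.01 ± 1.88 and 9.86 ± 1.86 FPKM (± SD, n = 3 per group), and Tnfrsf11b did not pass at a log2 difference of -0.02 ± 0.16 (SE) (limma, Benjamini-Hochberg adjusted p = 0.981). Its spread within groups, a coefficient of variation of 18.8% in controls and 18.9% in the mutant-labelled libraries, was, with that of Il34 in controls (18.9%), the widest among the 7 genes.

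The ratio of Tnfsf11 to Tnfrsf11b, ligand to decoy, was 0.260, 0.234 and 0.266 in controls 1 to 3. In libraries 1 to 3 labelled mutant it was 0.797, 0.406 and 0.633. The controls lay close together and the mutant-labelled libraries lay far apart from each other, yet the lowest of them was 1.52 times the highest control. The mean ratios were 0.254 ± 0.017 and 0.612 ± 0.196 (± SD, n = 3 per group), 2.41 times higher in the mutant-labelled libraries. The log2 ratio differed by 1.22 ± 0.29 (SE), with p = 0.1 in an exact permutation test, two-sided, the smallest p the design allows, and 0.15 after Benjamini-Hochberg adjustment over the 9 ratios tested. The wide spread in the mutant-labelled libraries followed both genes, since library 1 had the most Tnfsf11 and the least Tnfrsf11b of its group and library 2 the reverse. The ligand gene was below the decoy gene in all 6 libraries.

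**Figure D2:**
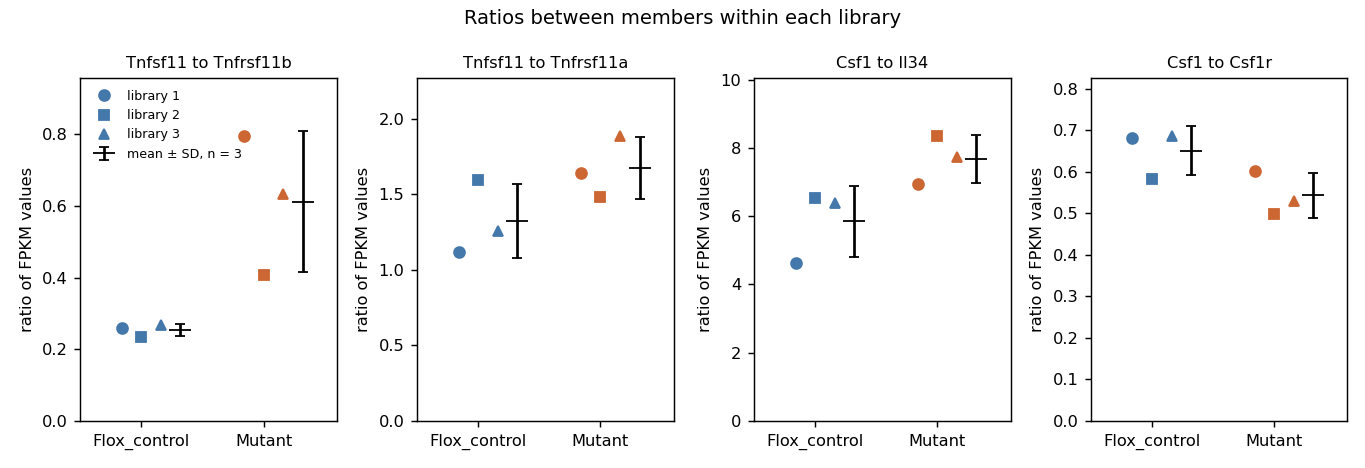
Ratios of FPKM values within each library (vertical axes, starting at 0) for 4 pairs of genes, with controls in blue, libraries labelled mutant in orange and the mean ± SD in black. The ratio of Tnfsf11 to Tnfrsf11b runs from 0.234 to 0.266 in controls and reaches 0.406 to 0.797 in the mutant-labelled libraries, while the ratio of Tnfsf11 to Tnfrsf11a overlaps between groups.

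Tnfrsf11a, the receptor gene, spans 67264 bases of chromosome 1 from 105780718 to 105847981 on the plus strand. It was the lowest of the 7 genes in every library, at 1.95, 1.77 and 2.03 FPKM in the controls and 3.91, 3.23 and 3.27 FPKM in the mutant-labelled libraries. The groups did not overlap. The means were 1.92 ± 0.13 and 3.47 ± 0.38 FPKM (± SD, n = 3 per group), 1.81 times higher. A log2 difference of 0.61 ± 0.10 (SE) missed the threshold over all genes (limma, Benjamini-Hochberg adjusted p = 0.0588). It passed with quantile normalization, without a trend in eBayes, with robust eBayes and with array weights, at adjusted p from 0.025 to 0.05 in limma, and it did not pass in any fit that lacked a library. The ratio of Tnfsf11 to Tnfrsf11a was 1.12, 1.59 and 1.26 in the controls and 1.64, 1.48 and 1.89 in the mutant-labelled libraries, with overlap.

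Traf6, the adaptor that couples RANK to NF-κB and MAP kinases and that also serves Toll-like and interleukin-1 receptors, lies on chromosome 2 from 101678429 to 101701669. It had 3.24, 4.04 and 3.74 FPKM in the controls and 4.09, 3.37 and 4.11 FPKM in the mutant-labelled libraries. The groups overlapped, with means of 3.67 ± 0.41 and 3.86 ± 0.42 FPKM (± SD, n = 3 per group). With a log2 difference of 0.06 ± 0.10 (SE), Traf6 did not pass (limma, Benjamini-Hochberg adjusted p = 0.921).

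Csf1, the growth factor gene of macrophage and osteoclast precursors, lies on chromosome 3 from 107741048 to 107760469 on the minus strand. It had 23.5, 23.0 and 25.5 FPKM in the controls and 30.7, 28.4 and 30.2 FPKM in the mutant-labelled libraries. The groups lay apart, but by a small step, with means of 24.0 ± 1.31 and 29.8 ± 1.23 FPKM (± SD, n = 3 per group) and a ratio of 1.24. At a log2 difference of 0.30 ± 0.06 (SE), Csf1 did not pass (limma, Benjamini-Hochberg adjusted p = 0.127), nor did it under any of the 16 other settings (adjusted p from 0.077 to 0.369).

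Il34, the other ligand of the CSF1 receptor, which is known as the main one for microglia and for Langerhans cells of the skin, had 5.07, 3.52 and 3.998 FPKM in the controls and 4.42, 3.39 and 3.91 FPKM in the mutant-labelled libraries. The groups overlapped, with means of 4.197 ± 0.79 and 3.91 ± 0.52 FPKM (± SD, n = 3 per group), and Il34 did not pass at a log2 difference of -0.08 ± 0.13 (SE) (limma, Benjamini-Hochberg adjusted p = 0.912). The gene lies on chromosome 8 from 110741829 to 110805924 on the minus strand, and its exons share 22 and 75 bases with the antisense genes Gm15894 and Gm15895. Use of strand in counting is not given in the sources used here. Reads from the shared bases may thus belong to either gene. Csf1 exceeded Il34 in every library, by 4.63, 6.53 and 6.37 times in the controls and by 6.94, 8.36 and 7.72 times in the mutant-labelled libraries. The values of the 2 groups did not overlap in this ratio, with a gap of 1.06 times.

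Csf1r, which encodes the receptor of both ligands on macrophages and osteoclast precursors, was the most abundant of the 7 genes in every library. It had 34.4, 39.4 and 37.1 FPKM in the controls and 51.0, 56.9 and 57.1 FPKM in the mutant-labelled libraries. All 3 of the latter lay above every control, with means of 37.0 ± 2.51 and 55.0 ± 3.49 FPKM (± SD, n = 3 per group) and a ratio of 1.49. Csf1r rose by 0.56 ± 0.07 on the log2 scale (SE; limma, Benjamini-Hochberg adjusted p = 0.0328), and in each of the 6 fits that lacked a library it did not pass (adjusted p from 0.0667 to 0.118). Csf1r runs from 61100598 to 61132149 on the plus strand of chromosome 18, and its exons share 873 bases with Hmgxb3 on the minus strand. Hmgxb3 had between 7.49 and 9.36 FPKM in the 6 libraries, with overlap between groups, and reads from the shared bases may be split between the genes by the authors' counting. Csf1 fell short of its receptor gene in all libraries, at 0.682, 0.583 and 0.687 of its level in the controls and 0.602, 0.498 and 0.529 in those labelled mutant, with overlap.

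Thus 2 of the 7 genes, Tnfsf11 and Csf1r, rose over all genes tested and 0 fell, where 0.607% of all tested genes passed in either direction. Without 1 library the count fell to 0, except without library 2 labelled mutant, where it was 1, Tnfsf11. By group mean, 5 of the 7 were higher, with a median log2 difference of 0.30, while 6657 of the 13180 tested genes were higher and their median was 0.0015. In each library the order of levels began with Csf1r, Csf1 and Tnfrsf11b, whose ranges lay apart within each group. Tnfsf11 ranked 6 in all 3 controls and 4 in all 3 libraries labelled mutant, where its lowest value of 4.78 FPKM was above the highest Il34 value of 4.42. Il34 and Traf6 changed places between the libraries of each group. In the mutant-labelled libraries Traf6 was above Tnfrsf11a in all 3, although the ranges of the 2 genes overlapped.

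By Xist and the Y-linked Ddx3y, controls 1 and 3 and library 1 labelled mutant came from females (Xist between 42.5 and 43.0 FPKM, Ddx3y listed at 0) and the other 3 libraries from males (Ddx3y between 12.4 and 12.8 FPKM), so the sexes were not balanced over the groups. Tnfrsf11b ran from 8.06 to 9.59 FPKM in the female libraries and from 9.74 to 12.1 FPKM in the male ones, without overlap. Il34 went the other way, from 3.998 to 5.07 FPKM in females and from 3.39 to 3.91 FPKM in males, also without overlap. The other 5 genes overlapped between the sexes, as did all but 8.9% of the tested genes. This was seen in the values first and was not tested. The ratio of Tnfsf11 to Tnfrsf11b was higher in the female libraries of each group. It was 0.260 and 0.266 against 0.234 in controls, and 0.797 against 0.406 and 0.633 in the mutant-labelled libraries. The ratio was not fitted with a sex term, and its relation to sex was not tested. With a sex term the log2 difference between groups was -0.15 ± 0.10 for Tnfrsf11b and 0.01 ± 0.11 for Il34 (SE), neither past the threshold in limma. In the same fit Tnfsf11 lost its call (log2 difference 0.95 ± 0.14 (SE), adjusted p = 0.09 in limma) and Csf1r kept it (0.51 ± 0.06, adjusted p = 0.0467), so that 1 of the 7 genes passed.

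**Figure D3:**
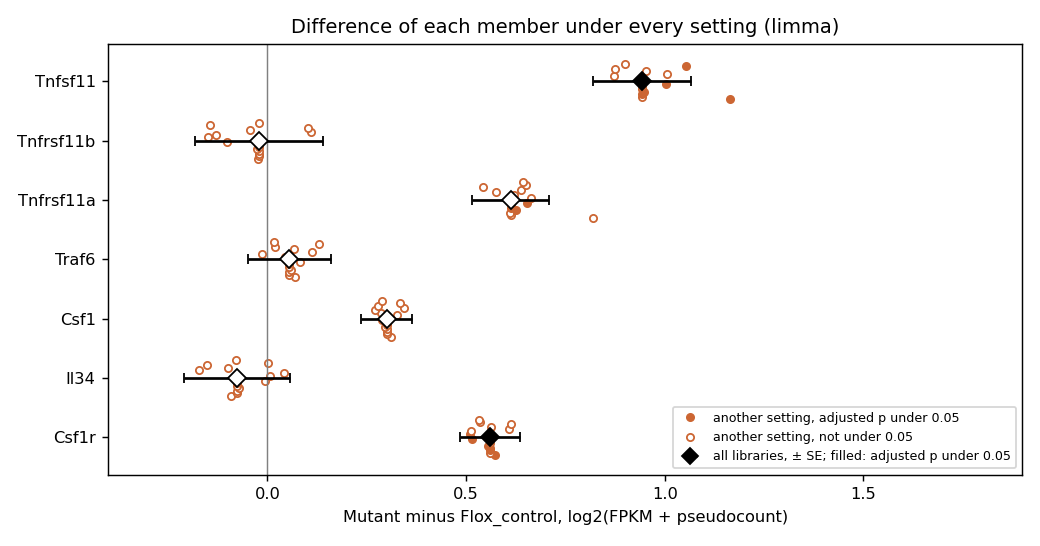
Difference of each gene between the mutant-labelled libraries and the controls (horizontal axis, log2 of FPKM plus the pseudocount) with all libraries (black diamonds, ± SE) and under each other setting (orange circles), filled where the limma adjusted p was under 0.05. The 4 genes whose groups lay apart stay above 0 under every setting that tested them, while Tnfrsf11b, Traf6 and Il34 scatter around 0.

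The genes whose profiles over the 6 libraries were most like that of Tnfsf11 were found by the root mean square difference between log2(FPKM + 1) profiles, each centred on its own mean. They were Cd68, a lysosomal glycoprotein gene of macrophages and osteoclasts, at 0.07, then Gpr137b-ps at 0.10, Rufy4 at 0.12, and Gpr137b and Podnl1 at 0.13 each. Cd68 had 35.8, 39.9 and 39.1 FPKM in the controls and 78.1, 69.7 and 81.2 FPKM in the mutant-labelled libraries, with library 2 the lowest of the latter as for Tnfsf11. Nearest to Csf1r were Ptch1, a Hedgehog receptor gene, Sbno2 and Laptm5 at 0.06 each, and Atp6v0b, a proton pump subunit gene, and Plekhn1 at 0.07 each. Nearest to Tnfrsf11b were Fsd1 at 0.06, Nat14 at 0.07 and Stx1a, Clip2 and Efna3 at 0.07 to 0.08, with their highest values in library 2 of each group. With 6 libraries and 13180 genes, near profiles are easily found, and the distances describe these libraries alone.

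Other partners of these proteins showed 1 rise. Lgr4, known as a further receptor for RANKL, rose from 11.2 ± 0.54 to 16.05 ± 0.99 FPKM (± SD, n = 3 per group), a log2 difference of 0.48 ± 0.07 (SE; limma, Benjamini-Hochberg adjusted p = 0.0405), and lost its call in each fit that lacked 1 library (adjusted p from 0.0974 to 0.159). Of the 5 tested genes in this list, 2 were higher by group mean and the median log2 difference was -0.06. Ptprz1, which encodes a further receptor for IL34, had 4.08 ± 0.42 and 4.93 ± 0.46 FPKM (± SD, n = 3 per group) without passing, and Sdc4, a syndecan gene, had 34.9 ± 3.87 and 30.4 ± 3.22. Sdc1, a syndecan gene whose product also binds IL34, and Vwf, whose product binds OPG, overlapped between groups. Tnfsf10, the gene of TRAIL, which OPG also captures, reached at most 1.10 FPKM and was not tested.

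A further list held inducers of RANKL in bone-forming cells, namely ligands, receptors and the transcription factor genes Crem, Creb1 and Stat3. Of its 15 tested genes 0 passed (limma with Benjamini-Hochberg adjustment), 11 were higher by group mean and the median log2 difference was 0.17. The groups lay apart upward in 6 of them, against 9.34% of all tested genes. Besides Pth1r itself, Vdr, the vitamin D receptor gene, had 24.3 ± 7.23 and 47.0 ± 5.65 FPKM (± SD, n = 3 per group; adjusted p = 0.153 in limma), and Pthlh, the gene of parathyroid hormone-related protein, 2.48 ± 0.61 and 4.40 ± 0.50 (adjusted p = 0.144). Among the cytokine genes of the list, only Lif reached the tested level, at 1.52 ± 0.27 and 1.96 ± 0.23 FPKM (± SD, n = 3 per group). Its groups lay apart upward, and it did not pass (adjusted p = 0.581 in limma). The cytokine genes Il6, Il11, Osm, Il1a, Il1b and Tnf were below 0.72 FPKM in every library, and Il17a was listed at 0 in all 6.

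Of the genes by which RANK and the CSF1 receptor signal inside the cell, 0 passed, and the list medians were low while single genes differed by more. In the list from RANK to NF-κB, 0 of 21 tested genes passed, 20 were higher by group mean and the median log2 difference was 0.10. Those with the smallest p were Tnfaip3, a feedback inhibitor, at 2.09 ± 0.22 and 2.81 ± 0.25 FPKM (± SD, n = 3 per group), Map3k14, the kinase of the alternative pathway, at 4.98 ± 0.15 and 5.85 ± 0.39, and Tab1, a partner of the kinase TAK1, at 14.1 ± 0.37 and 15.6 ± 0.45. In the MAP kinase and AP-1 list, 0 of 12 passed and 8 were higher, with a median of 0.04. Fosl2 had 18.5 ± 0.97 and 23.3 ± 1.903 FPKM (± SD, n = 3 per group), and Fos and Junb, which also respond to handling of tissue, overlapped between groups, Fos at 17.5 ± 8.58 and 34.3 ± 10.7 and Junb at 13.4 ± 3.99 and 19.4 ± 2.34. The log2 difference of Fos, 0.99 ± 0.35 (SE), was above that of Tnfsf11 but did not pass (limma, Benjamini-Hochberg adjusted p = 0.36). In the CSF1 receptor list, 0 of 19 passed and 16 were higher, with a median of 0.16. Here the smallest p values belonged to Inpp5d, Lyn and Ptpn6, which encode a lipid phosphatase, a Src family kinase and a tyrosine phosphatase of blood cells, with mean ratios of 1.34, 1.25 and 1.38. At an unadjusted p under 0.05, 5.91% of all tested genes were higher and 4.62% lower. In the order above, the groups lay apart upward in 4 of 21, 1 of 12 and 5 of 19 genes, and downward in 0, 0 and 1. Over all tested genes, 9.34% lay apart upward and 6.79% downward, and 6657 of 13180 were higher by group mean.

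Genes that RANK signalling is known to turn on in osteoclasts had the highest median difference of the 18 lists. Of 15 such genes, 9 rose (limma, Benjamini-Hochberg adjusted p under 0.05), 15 were higher by group mean and the median log2 difference was 1.04. The groups lay apart upward in 13 of the 15. Over all tested genes, 0.524% passed as higher and 9.34% lay apart upward. When 1 library was left out, between 6 and 9 passed. Ctsk, the cathepsin K gene, rose from 351 ± 4.64 to 775 ± 41.2 FPKM and Acp5, the gene of tartrate-resistant acid phosphatase, from 155 ± 21.0 to 485 ± 14.9 (± SD, n = 3 per group). Atp6v0d2, a proton pump subunit gene, rose from 9.49 ± 0.68 to 27.6 ± 0.58 FPKM and Dcstamp, needed for cell fusion, from 2.18 ± 0.17 to 7.75 ± 0.66 (± SD, n = 3 per group). The other rises were those of Mmp9, Ocstamp, Itgb3, Oscar and Tcirg1. Nfatc1, Calcr, Clcn7, Ostm1, Src and Car2 did not pass, and Src and Car2 overlapped between groups. Tcirg1 passed in 2 of the 6 fits that lacked a library, and Ocstamp and Oscar did not pass without library 1 of the mutant-labelled ones (adjusted p = 0.0514 and 0.0556 in limma). The ratio of means was 1.81 for Tnfrsf11a and 2.21 for Ctsk, and the level of Tnfrsf11a relative to Ctsk was 0.82 times that of the controls. This list had been described in these data before and is no independent support for the direction.

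**Figure D4:**
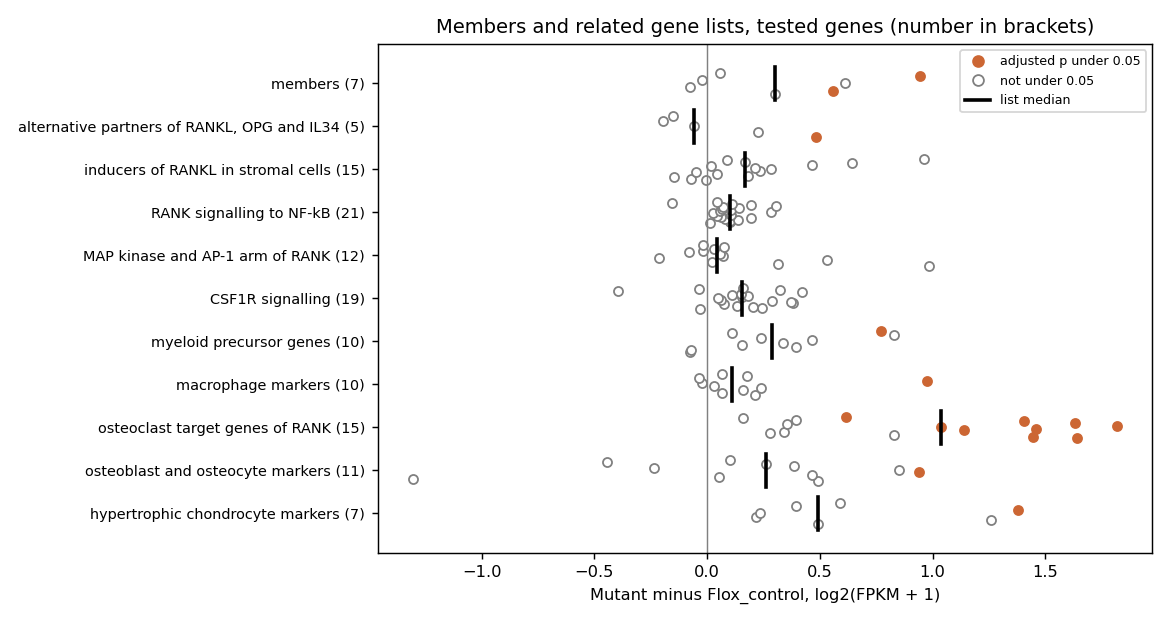
Log2 difference between the mutant-labelled libraries and the controls (horizontal axis, log2 of FPKM + 1) for each tested gene of the 7 members and of related lists, filled orange where the limma adjusted p was under 0.05, with black bars for list medians. The median of the osteoclast target genes lies farthest to the right, at 1.04, and the medians of the signalling lists lie close to 0, with Fos at 0.99 as their highest gene.

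Among the marker genes of cells that carry the receptor genes, a few were higher and most did not pass. Among the myeloid precursor genes, Tyrobp, a myeloid signalling adaptor gene, rose from 84.2 ± 6.13 to 144 ± 7.74 FPKM (± SD, n = 3 per group; limma, Benjamini-Hochberg adjusted p = 0.00872) as the 1 of 10 tested to pass. Spi1, the PU.1 gene, had 14.3 ± 2.97 and 25.8 ± 1.52 FPKM and Fcer1g 54.4 ± 2.69 and 71.8 ± 2.55 (± SD, n = 3 per group), neither past the threshold. The groups lay apart upward in 5 of the 10, against 9.34% of all tested genes, while Trem2, Cx3cr1 and Cebpa overlapped at log2 differences of 0.11, -0.07 and -0.08. The list summed to between 181 and 207 FPKM in controls and between 287 and 295 FPKM in the mutant-labelled libraries. Tyrobp did not pass without library 1 labelled mutant (adjusted p = 0.0514 in limma). The macrophage list summed to between 366 and 425 FPKM in controls and between 449 and 472 FPKM in the mutant-labelled libraries. Cd68 was the 1 of 10 to pass, and the median log2 difference was 0.11. Cd68, also a gene of osteoclasts, gave 39.9 FPKM of the highest control sum and 78.1 FPKM of the lowest mutant-labelled sum. The sums lay apart only with Cd68 included. In this list the groups lay apart upward in 2 of the 10, Cd68 and Adgre1. The other 8, among them C1qa, Mrc1, Cd163, Cd14 and Fcgr1, overlapped. The defining macrophage gene Adgre1 had 5.80 ± 0.26 and 6.88 ± 0.49 FPKM (± SD, n = 3 per group). Relative to Adgre1, Csf1r was 6.37 ± 0.18 in controls and 7.99 ± 0.15 in the mutant-labelled libraries (± SD, n = 3 per group), without overlap. The exact permutation test gave p = 0.1, and 0.15 after Benjamini-Hochberg adjustment over the 9 ratios. Here too the marker chosen sets the result. The ratio of means was 1.49 for Csf1r and 1.19 for Adgre1. Over the tested genes of the myeloid and macrophage lists it ran from 0.929 for Cebpa to 1.99 for Cd68. In bulk tissue, more cells of a type and more RNA per cell cannot be told apart. The part of myeloid cells in the Csf1r and Tnfrsf11a values was not tested.

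On the side of the cells that make RANKL, the 7 hypertrophic chondrocyte markers were all higher by group mean and their groups lay apart, with 1 past the threshold, Mmp13, and a median log2 difference of 0.49. Over all tested genes, 9.34% lay apart upward and 0.524% passed as higher. They summed to between 2322 and 2653 FPKM in controls and between 3503 and 4349 FPKM in the mutant-labelled libraries, most of it Spp1. Col10a1, the defining collagen, had 9.95 ± 3.57 and 24.8 ± 5.91 FPKM (± SD, n = 3 per group) without passing (limma, Benjamini-Hochberg adjusted p = 0.109). Ihh did not pass either (adjusted p = 0.545 in limma). Alpl was also counted among the osteoblast and osteocyte markers, so the list is not specific to hypertrophic chondrocytes. The 11 osteoblast and osteocyte markers gave overlapping sums, 10902 to 12564 FPKM in controls against 11511 to 15836 FPKM in the mutant-labelled libraries, with 8 higher by group mean, a median of 0.26 and 1 past the threshold, Ibsp. Their groups lay apart upward in 6 and downward in 2, against 6.79% downward over all tested genes. The latter were Bglap, the osteocalcin gene, with 170 ± 83.1 and 64.8 ± 17.7 FPKM, and Pdpn with 39.6 ± 0.82 and 33.5 ± 0.46 (± SD, n = 3 per group), neither past the threshold. Bglap had the widest log2 difference of the list, -1.31 ± 0.34 (SE; limma, Benjamini-Hochberg adjusted p = 0.217), and has near-identical neighbouring copies between which counting can split reads. When 1 library was left out, Ibsp, like Tnfsf11, passed if that was library 2 of the mutant-labelled ones and not otherwise (adjusted p from 0.028 to 0.128 in limma). Relative to Runx2, an osteoblast and chondrocyte regulator, Tnfsf11 was 0.085 ± 0.012 in controls and 0.161 ± 0.021 in the mutant-labelled libraries (± SD, n = 3 per group), without overlap. An exact permutation test gave p = 0.1, and 0.15 after Benjamini-Hochberg adjustment over the 9 ratios. The size of this ratio depends on the marker chosen. The ratio of means was 2.30 for Tnfsf11 and 1.21 for Runx2, and over both marker lists it ran from 0.381 for Bglap to 2.61 for Mmp13. The part of these cells in the Tnfsf11 values was not tested.

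Markers of lymphocytes, which can also make RANKL, were low in all libraries. Of the 11 lymphocyte markers found by name, 2 reached the tested level, Cd4 at 1.43 ± 0.06 and 1.71 ± 0.60 FPKM and Cd79b at 1.86 ± 0.23 and 1.77 ± 0.46 (± SD, n = 3 per group), and the list summed to between 4.35 and 5.51 FPKM in the 6 libraries. Cd3e, the defining T cell gene, reached at most 0.19 FPKM. Epidermis is a source of Il34, and its markers summed to between 2.90 and 4.799 FPKM in controls and between 1.96 and 2.69 FPKM in the mutant-labelled libraries, without overlap. Most of this was Krt10, at 1.83 ± 0.05 and 1.40 ± 0.23 FPKM, and Lor, at 1.63 ± 0.82 and 0.65 ± 0.20 (± SD, n = 3 per group). These were the 2 tested genes of the list, both near the lowest level tested and neither past the threshold. Both were lower in every mutant-labelled library than in any control, as were 6.79% of all tested genes. Krt5 and Krt14 were at or below 0.28 FPKM. The part of these cells in the Il34 values was not tested. Neural markers, of another tissue that makes Il34, summed to between 40.0 and 41.6 FPKM in controls and between 12.02 and 75.9 FPKM in the mutant-labelled libraries, and 0 of 4 passed. Cartilage matrix markers were mostly lower, with 9 of 10 lower by group mean and 3 past the threshold, Matn1, Ucma and Col9a3 (0 to 5 without 1 library). Their sums were 1021 to 1983 FPKM in controls and 515 to 649 FPKM in the mutant-labelled libraries. Over all tested genes, 0.0835% passed as lower. Red cell markers summed to between 4846 and 6911 FPKM and between 2698 and 11946 FPKM, and neutrophil markers to between 37.1 and 52.3 FPKM and between 45.9 and 95.8 FPKM, with 0 past the threshold in either list. Of the 6 muscle markers 0 passed.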

How the data were processed

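Messenger RNA of 6 calvaria libraries was compared, 3 per group, with groups and replicate numbers taken from the sample titles. The deposited values are FPKM made by the authors with Cufflinks 2.2.1, and the submitters' processing notes also name SAMtools 0.1.19, Bowtie2 2.2.3 and TopHat2 2.0.13, and the build mm10. Options, annotation, strand use and totals of reads are not given in the sources used here. Absolute depth is therefore unknown, and the error of each value is the spread over the libraries of a group.

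Genes averaging 1 FPKM or more were fitted as log2(FPKM + 1) by limma 3.58.1 under R 4.3.3 (lmFit, eBayes with trend, two-sided), with Benjamini-Hochberg adjustment over 13180 genes at 0.05. The procedure was also run on simulated data with independent noise for each gene. That simulation held no imbalance of sex or depth, so it cannot speak to those, and its outcome is not reported here. The 7 genes, the 18 lists of 201 entries, 2 of which matched no name, and the tests were chosen with earlier results of these data known. Genes of the lists were named by a rule, those past the threshold, the 3 with the smallest p and, for other cell types, the 2 most abundant, not all of which are printed. Defining markers and further genes outside the rule were named after their values were seen. All 9 ratios were compared by exact permutation tests, and 6 of them reached 0.1, the smallest p possible. Gene positions are those of GENCODE M21 (GRCm38, which mm10 denotes).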

Additional observations from a re-analysis of the deposited data

How the results depend on the processing

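Of 16 other settings, 15 tested Tnfsf11 and Tnfrsf11a and all 16 tested Csf1 and Csf1r. These genes kept their direction in every setting that tested them. Tnfsf11 lost its call with no filter on low values (log2 difference 0.94, adjusted p = 0.069 in limma) and with a sex term (0.95, adjusted p = 0.09), and Csf1r with no filter (0.56, adjusted p = 0.0539) and without a trend in eBayes (0.56, adjusted p = 0.0509). Tnfrsf11a gained a call with quantile normalization (0.63), without a trend or with robust eBayes (0.61 each) and with array weights (0.65). The sex term turned Il34 to 0.0079. The number of the 7 genes past the threshold was 0 with no filter, 1 with the filter at a mean of 5 FPKM, which removed Tnfsf11, Tnfrsf11a, Traf6 and Il34, and 1 with the sex term. Over all genes, 80 passed, against 50 with no filter, 183 with array weights and 43 with the sex term. Without 1 library, the log2 difference ran from 0.87 to 1.05 for Tnfsf11, from 0.51 to 0.61 for Csf1r, from -0.15 to 0.11 for Tnfrsf11b, from -0.013 to 0.13 for Traf6 and from -0.17 to 0.041 for Il34, with 0 to 1 of the 7 genes and 16 to 44 of all genes past the threshold. Same-numbered libraries did not deviate together (correlations from -0.07 to 0.02), and with the replicate number as a block 25 genes and 0 of the 7 passed, at log2 differences of 0.94 for Tnfsf11 (adjusted p = 0.131 in limma) and 0.56 for Csf1r (0.068). The log2 ratio of Tnfsf11 to Tnfrsf11b differed by 0.96 to 1.49 over its 10 alternatives. The causes were not tested. Absolute depth is unknown, which limits what can be said of genes at 1 to 2 FPKM.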
